A study of Mus musculus with 24 samples.

Results

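The genes of the cytosolic ribosome that carry a standard ribosomal protein name were followed through livers of mice that differed in genotype, diet and circadian time. Members were all genes whose symbol is Rpl or Rps followed by a number, with the suffixes a, l or x allowed, together with Rpsa and the stalk genes Rplp0, Rplp1 and Rplp2. Ribosomal protein kinases and pseudogenes with a -ps suffix were left out. The rule found 86 genes of 15741, with 51 for the large subunit and 35 for the small subunit. Of the 86, 85 had reads listed for all 24 libraries and Rpl3l did not. No measured value entered the rule.

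RNA-seq of polyadenylated liver RNA covered 24 mice in 8 groups of 3. The animals were wild type (WT) or lacked GCN2 throughout the body (KO), ate either the Control diet or LeuD, which is free of leucine, and were killed at circadian time CT03 or CT15. GCN2, a kinase that senses uncharged transfer RNA, is encoded by Eif2ak4. The 8 groups were WT Control CT03, WT Control CT15, WT LeuD CT03, WT LeuD CT15, KO Control CT03, KO Control CT15, KO LeuD CT03 and KO LeuD CT15. All mice were housed singly, had 2 days on the control diet before the diets parted, and spent the last 8 days in constant darkness, so the LeuD mice had more than a week without dietary leucine. The knockout is present in every cell of the body, strain and age are not stated in the labels, and the liver is a mixture of cell types.

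A cytosolic ribosome contains a single copy of nearly every ribosomal protein, and the messages for these proteins are among the most abundant of any cell. Most of these messages begin with a terminal oligopyrimidine tract (TOP), a run of C and T residues at the start of the transcript, through which the kinase mTORC1 and the RNA-binding protein LARP1 tie their translation and storage to amino acid supply. In liver, the mass of ribosomes follows feeding and fasting, and GCN2 slows translation initiation when an amino acid is missing.

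The start regions of members are shown because the tract is the sequence feature these genes are known to share. They come from the RefSeq promoter table for GRCm38.p6, in which 62 of the 86 members were found by symbol. Each line gives 30 bases of the gene's own strand, 5′ to 3′, and the capitals mark the longest run of C and T that begins with C (the first of them where runs tie, as in Rps27l). The first set holds members whose reads were higher on LeuD, from the large subunit (Rpl13a, Rpl12, Rpl4, Rpl5) and the small subunit (Rps12, Rps19, Rps26, Rps24). Their mean log2 changes ran from 0.48 for Rps24 to 0.72 for Rpl12, where the median of all members was 0.48.

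Rpl13a: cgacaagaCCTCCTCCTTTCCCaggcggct
Rpl12: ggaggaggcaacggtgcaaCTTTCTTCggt
Rpl4: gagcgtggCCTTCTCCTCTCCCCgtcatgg
Rpl5: tacagccaCTCTTTCTCacgtcgcttgcgt
Rps12: accgccggCCTTTTCCCCTgccgccgccga
Rps19: ccgtcgttCCCTTTCCCCTggctggcagcg
Rps26: cgccggatCCTCTTTCgagtcttggctcca
Rps24: tgagcggtCCTCTTTTCCTCCTCTCCagct

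These windows lie at chr7:45128722-45128751 on the minus strand (Rpl13a), chr2:32961732-32961761 plus (Rpl12), chr9:64173405-64173434 plus (Rpl4), chr5:107900500-107900529 plus (Rpl5), chr10:23787180-23787209 minus (Rps12), chr7:24884625-24884654 plus (Rps19), chr10:128626481-128626510 minus (Rps26) and chr14:24490709-24490738 plus (Rps24). The tract of Rpl13a begins at base 3 of the annotated transcript and that of Rps26 at base 5. The marked runs of Rpl12 and, in the second set below, of Rpl36al begin well inside the annotated transcript and not at its start. The second set holds a pair in which the standard gene was called higher on LeuD and its paralog was not (Rps27 with Rps27l). It also holds a second such pair (Rpl36a with Rpl36al), and Rpl7l1 and Rpl23, whose longest runs were short. The difference in diet change within a pair was not tested.

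Rps27: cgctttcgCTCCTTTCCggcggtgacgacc
Rps27l: cgcctccaCTCCTCTCCactcctccccgcc
Rpl36a: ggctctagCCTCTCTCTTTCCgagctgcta
Rpl36al: tctgttcgtCCCTTTCCTgttcggcgcgtg
Rpl7l1: gaggcgggCCTCTCTaccccgcccggtgag
Rpl23: gggcggggCCTCCCgttcatatcccagtgt

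Their windows are chr3:90213629-90213658 minus (Rps27), chr9:66946056-66946085 plus (Rps27l), chrX:134585673-134585702 plus (Rpl36a), chr12:69184018-69184047 minus (Rpl36al), chr17:46782667-46782696 minus (Rpl7l1) and chr11:97782400-97782429 minus (Rpl23). A run of at least 8 pyrimidines that begins with C, on the gene's strand between 50 bases before and 50 after the annotated start, was found for 52 of 62 members (83.9%) and for 32.2% of 11286 other genes of the tables. The ETS-type motif CCGGAAG, searched on both strands of the whole 300-base window (250 bases before the start and 50 after), was found for 25 members (40.3%) against 18.1%. Its reverse complement is rich in pyrimidines and can overlap a tract. The YY1-type motif GCCATNTT, searched in the same way, was found for 13 members (21.0%) against 9.4%. These are matches of letters in annotated starts, which can lie some bases away from the start used in liver.

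Depth was 34137121 to 44884200 gene reads a library. Values below are normalized counts, which are reads divided by a size factor per library. Hepatocyte markers (9 of 10 measured) summed to 92329.9 to 192754.9 RPM (reads scaled to the library total) over the 24 libraries. Eif2ak4 reads, counted over the whole gene, were not lower in KO and so do not check the genotype labels. The part of the gene that the allele removes is not stated in the labels. Eif2ak4 had 325 ± 16.5 normalized counts (SD, n = 12) in WT and 364 ± 71.5 (n = 12) in KO. Pancreas acinar transcripts, 16 of 17 listed markers measured, summed on that scale to 14818.4 in KO LeuD CT03 replicate 1, 7897.7 in KO LeuD CT15 replicate 3, 4316.6 in WT LeuD CT15 replicate 1, 669.6 in KO Control CT15 replicate 1 and 268.1 in KO Control CT03 replicate 3, against 9.7 to 71.4 in the other libraries. Medians and counts of the comparisons that use these 5 libraries are also given without them, which leaves fewer mice in the affected groups. No share of all genes at an unadjusted p under 0.05 is given for these smaller fits. Shares at that p printed nearby belong to the full fits.

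Ribosomal protein messages took a larger share of the liver's reads on LeuD than on Control. The 86 members held 1.79%, 1.84% and 1.94% of reads in WT Control CT03 and 2.51%, 2.16% and 2.47% in WT LeuD CT03. At CT15 they held 1.82%, 1.94% and 2.18% in WT Control and 2.79%, 2.43% and 2.42% in WT LeuD. In KO mice the shares at CT03 were 1.78%, 1.73% and 1.78% on Control and 3.05%, 2.95% and 2.74% on LeuD. At CT15 they were 2.06%, 1.89% and 1.87% in KO Control and 2.55%, 2.17% and 2.2% in KO LeuD. The LeuD group lay above its Control group without overlap in WT at CT03 and CT15 and in KO at CT03 and CT15. The group means were 1.86% ± 0.077 and 2.38% ± 0.188 (SD, n = 3) in WT at CT03, 1.98% ± 0.184 and 2.55% ± 0.21 in WT at CT15, 1.76% ± 0.0324 and 2.91% ± 0.156 in KO at CT03, and 1.94% ± 0.108 and 2.31% ± 0.21 in KO at CT15. KO LeuD CT03 held the 2 highest single shares, 3.05% in replicate 1, which had the most acinar transcripts, and 2.95%. The highest WT share, 2.79%, was also that of a library with acinar transcripts (WT LeuD CT15 replicate 1). The shares ran from 1.73% to 2.18% in the 10 Control libraries and from 2.16% to 2.95% in the 9 LeuD libraries that remain without the acinar ones. In bulk tissue, fewer cells of a type and less RNA per cell cannot be told apart, and a share of reads rises also where other messages fall.

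**Figure D1:**
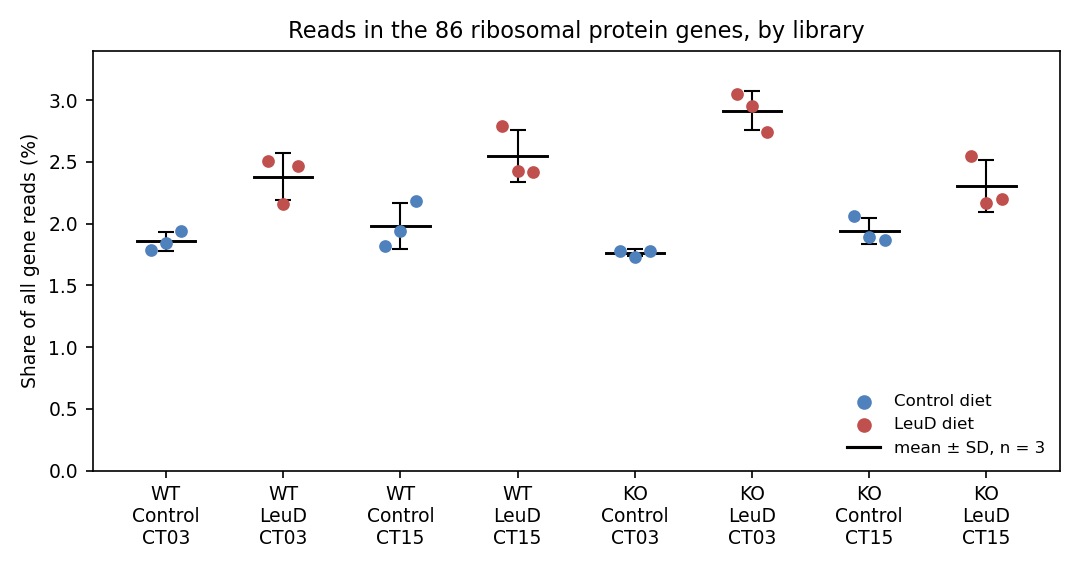
Share of all gene reads (percent, y axis) held by the 86 ribosomal protein genes in each library (points), by group (x axis), with the mean ± SD of 3 mice as a bar. The 12 LeuD libraries lie between 2.16% and 3.05% and the 12 Control libraries between 1.73% and 2.18%.

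Reads of large subunit genes were 1.35 to 1.45 times those of small subunit genes in the 24 libraries. In WT at CT03 this ratio was 1.4, 1.39 and 1.45 on Control and 1.38, 1.38 and 1.38 on LeuD, and at CT15 1.4, 1.38 and 1.41 against 1.38, 1.36 and 1.37. The WT ratios on LeuD were thus at or below those on Control, and in KO the ranges of the diets overlapped. Mitochondrially encoded transcripts moved the other way, from 4.28% to 6.31% of reads on Control to 2.24% to 4.84% on LeuD, and albumin took 6.14% to 10.7% on Control and 7.59% to 15.3% on LeuD. Summed erythroid markers (6 of 8 measured) ran from 212.2 to 461.7 RPM on Control and from 78.2 to 275.5 on LeuD. The part of these co-moving transcripts in the result was not tested.

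Members differed widely in level. On the scale of RPM per kilobase of transcript, the mean level over the 24 libraries was highest for Rps2 at 1019, Rplp1 at 900 and Rpl10 at 624. Rps2 sits at the mRNA entry of the small subunit, Rplp1 in the stalk that recruits translation factors, and Rpl10 joins the large subunit late. At the other end on the same scale, Rps3a2 stood at 1.97, Rpl6l at 0.465 and Rps3a3 at 0.43, and reads of such close copies of Rps3a1 and Rpl6 depend on how reads that fit several genes were assigned, which the sources used here do not give. Rpl3l, the relative of Rpl3 known from muscle, was listed in 3 of the 10 tables and had 0 to 6.85 normalized counts in 11 of its 12 listed libraries and 50 in WT Control CT15 replicate 1. The SD of the log2 level over the 24 libraries was smallest for Rpl7l1 (0.19), Rps27l (0.19) and Rpl35a (0.20). It was largest for Rpl6l (0.48) and Rps3a3 (0.50), both with few reads, and for Rpl3l (1.65, over its 12 libraries). Rpl12 (0.43) came next.

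Averaged over the 4 conditions, 79 of 85 members rose on LeuD and 0 fell, where the shares of all 14474 genes were 7.15% higher and 6.78% lower. This mean effect was added after the data had been seen. It came from 1 fit of all 24 libraries with limma, on log2(normalized count + 1), with Benjamini-Hochberg adjustment over all genes and a call at an adjusted p under 0.05. The median log2 change of the members was 0.48, which is 1.39-fold, against 0.00 for all genes. The count was 79 with edgeR (7.3% of genes called higher) and 79 with DESeq2 (8.59%) on the recovered reads, and 74 without the 5 libraries with acinar transcripts (6.56%), where the median was 0.45. The median was 0.47 in the large subunit and 0.48 in the small subunit.

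Of the 85, 77 had a positive change in WT at CT03, WT at CT15, KO at CT03 and KO at CT15 alike (90.6% of members against 11.9% of genes). For 30 members the 3 LeuD libraries lay above the 3 Control libraries in all 4 comparisons, which held for 0.499% of genes. For 6 members (Rpl4, Rpl23, Rpl26, Rplp1, Rps14 and Rps24) all 12 LeuD libraries lay above all 12 Control libraries, which held for 0.111% of genes. These 4 diet comparisons have no library in common.

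**Figure D2:**
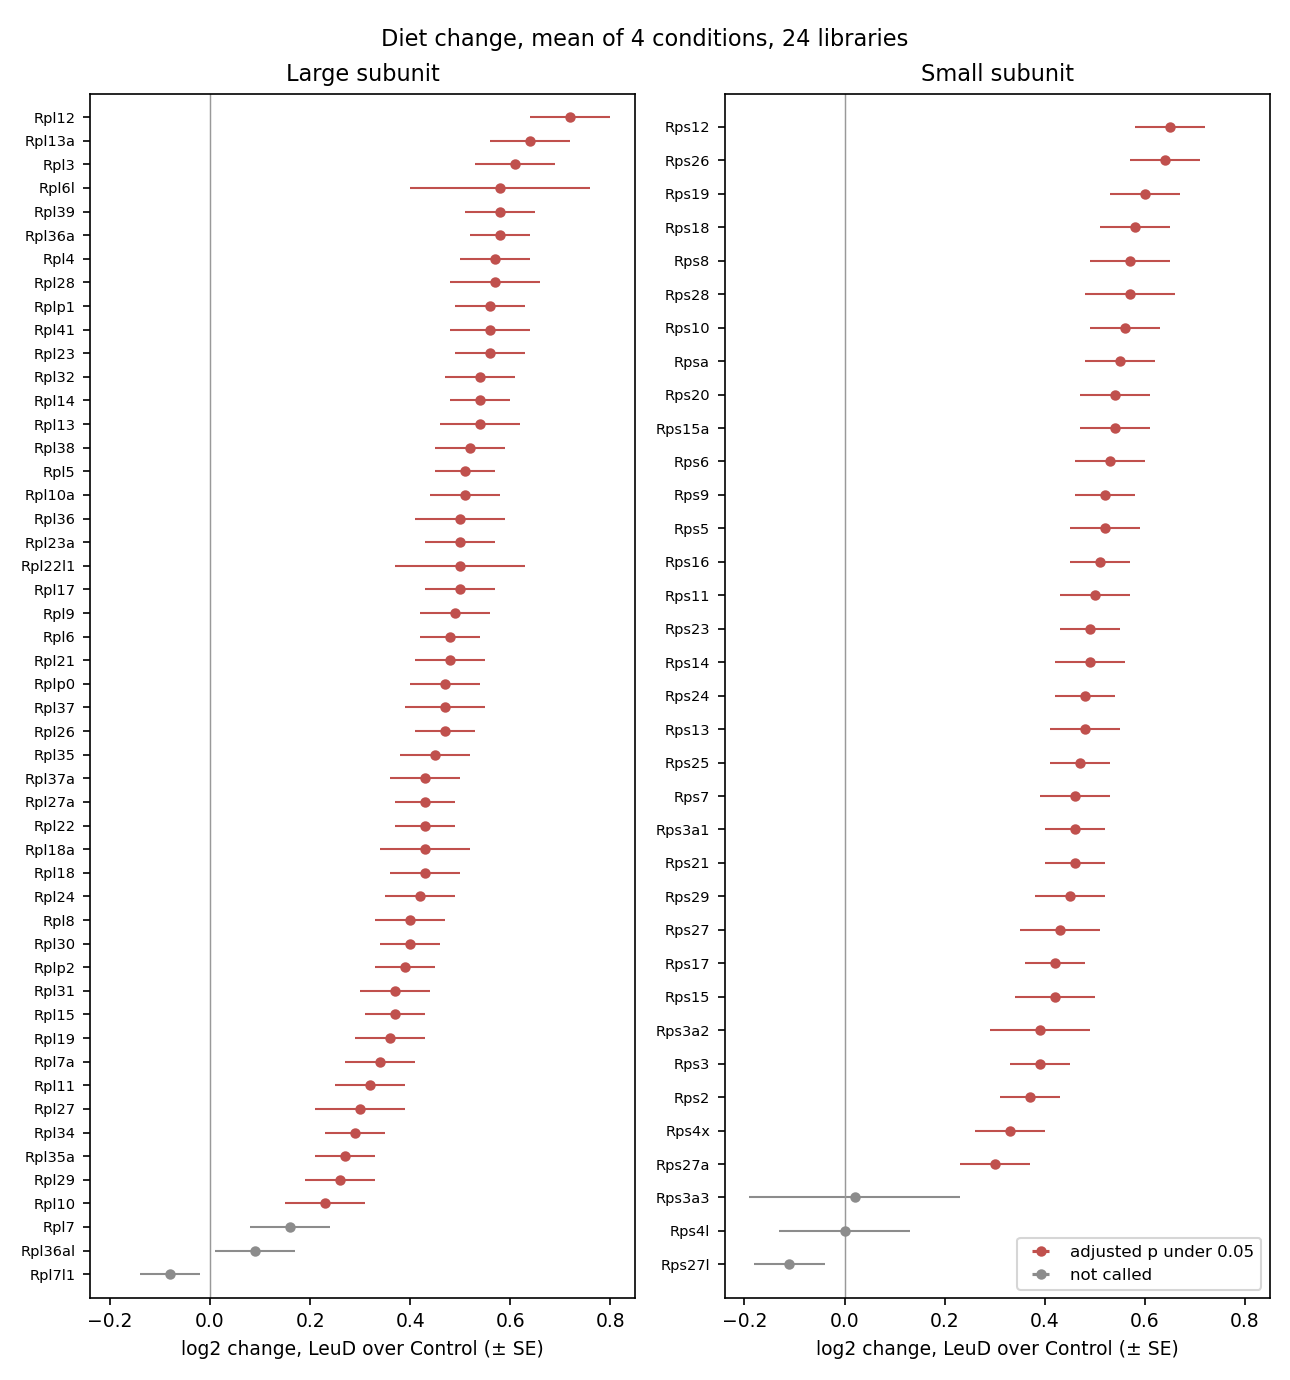
Log2 change of LeuD over Control (x axis, point ± SE) for each of 85 members, mean of 4 conditions over 24 libraries, ranked within the large and the small subunit. Called members (red, 79) run from 0.23 for Rpl10 to 0.72 for Rpl12, and 6 members (grey) were not called.

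Among core proteins of the large subunit, Rpl3 and Rpl4 bind ribosomal RNA early in assembly, and a loop of Rpl4 lines the exit tunnel for the growing peptide. Rpl4 had 17559 to 24553 normalized counts (median 21459) in the 12 Control libraries and 25607 to 38030 (median 31213) in the 12 LeuD libraries, so the diets did not overlap. Its mean change was 0.57 ± 0.07 (log2 ± SE, adjusted p = 2.22e-05, limma). Rpl3 changed by 0.61 ± 0.08 (adjusted p = 7.45e-05, limma). Rpl13a, a surface protein that can leave the ribosome and act in inflammatory translation control, had 5039 to 9172 on Control (median 6905) and 8821 to 14259 on LeuD (median 10212). It overlapped only through KO Control CT15 replicate 1, at 9172, and changed by 0.64 ± 0.08. Rpl23, a protein at the subunit interface and an inhibitor of MDM2 when free, had 9060 to 12211 on Control and 12562 to 18033 on LeuD, with a change of 0.56 ± 0.07. Rpl39, the small protein of the exit tunnel, changed by 0.58 ± 0.07. The smaller changes in this subunit included Rpl34 (0.29 ± 0.06), Rpl35a (0.27 ± 0.06) and Rpl29 (0.26 ± 0.07).

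The 5S particle joins Rpl5 and Rpl11 with 5S ribosomal RNA, and when free it binds MDM2 and stabilises p53. Rpl5 had 10382 to 15573 normalized counts on Control (median 12588) and 14791 to 21040 on LeuD (median 17977), a change of 0.51 ± 0.06. Rpl11 had 9512 to 13007 on Control and 10816 to 16501 on LeuD, a change of 0.32 ± 0.07 (adjusted p = 0.00288, limma). Both rose, Rpl5 by more in the point estimate. The difference between these 2 genes was not tested.

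The stalk recruits elongation factors through Rplp0, Rplp1 and Rplp2, on a base that includes Rpl12. Rpl12 had the largest mean diet change of all members, 0.72 ± 0.08 (adjusted p = 1.78e-05, limma). Its counts ran from 6843 to 10381 on Control (median 8012) and from 9459 to 17543 on LeuD (median 12381). The overlap came from WT LeuD CT03 replicate 2, at 9459, and WT Control CT15 replicate 3, at 10381. Rplp1 had 12597 to 16456 on Control and 17497 to 29725 on LeuD without overlap, a change of 0.56 ± 0.07. Rplp0, often used as a reference gene in qPCR, had 17039 to 22318 on Control and 21299 to 30714 on LeuD and changed by 0.47 ± 0.07. Rplp2 changed by 0.39 ± 0.06. All 4 stalk genes rose.

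Of the small subunit, Rps12, a protein of the head of the subunit, had 5717 to 7874 normalized counts on Control (median 6647) and 7867 to 14687 on LeuD (median 10826), a change of 0.65 ± 0.07 (adjusted p = 1.36e-05, limma). Rps26, which lies along the mRNA exit channel, had 4745 to 6412 on Control and 6314 to 11735 on LeuD, a change of 0.64 ± 0.07. Rps19, the gene most often mutated in Diamond-Blackfan anaemia, had 4863 to 6531 on Control and 6061 to 12205 on LeuD, a change of 0.60 ± 0.07. In each of these 3 the ranges of the diets overlapped at their edges. Rps6, the S6 kinase substrate, had 9394 to 14191 on Control and 12662 to 19576 on LeuD and changed by 0.53 ± 0.07. Rpsa (0.55 ± 0.07), Rps3 (0.39 ± 0.06), Rps29 (0.45 ± 0.07) and the ubiquitin fusion gene Rps27a (0.30 ± 0.07) were also called. Rps4x, the X-linked gene of the pair with Rps4l, changed by 0.33 ± 0.07.

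Of the remaining members of the fixed set, Rpl36a (0.58 ± 0.06), Rpl41 (0.56 ± 0.08), Rpl38 (0.52 ± 0.07), Rpl10a (0.51 ± 0.07), Rpl22 (0.43 ± 0.06) and Rpl22l1 (0.50 ± 0.13) were called higher. Rpl22l1 was at 0.32 and was not called without the acinar libraries (adjusted p = 0.14, limma). Rpl10 was the least changed of the called members, at 0.23 ± 0.08 (adjusted p = 0.0458, limma). Its call was lost in 17 of 24 fits that each left out 1 library, when all libraries were scaled to their total reads (adjusted p = 0.0603) and without the libraries with acinar transcripts (adjusted p = 0.0886), all with limma.

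The 6 members that were not called were mostly relatives of a standard gene: Rps27l (-0.11 ± 0.07, adjusted p = 0.307), Rpl7l1 (-0.08 ± 0.06, adjusted p = 0.473), Rps4l (0.00 ± 0.13, adjusted p = 0.997), Rps3a3 (0.02 ± 0.21, adjusted p = 0.971) and Rpl36al (0.09 ± 0.08, adjusted p = 0.529), all from limma. Rpl7, the standard gene, was at 0.16 ± 0.08 (adjusted p = 0.17, limma). The values are on the log2 scale with their SE. Rps3a3 had few reads, so its interval is wide.

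Rps27 and Rps27l encode nearly identical small subunit proteins, and Rps27l is known as a p53 target. Rps27 had 4545, 4833 and 5302 normalized counts in WT Control CT03 and 7047, 5988 and 6426 in WT LeuD CT03, and 4057, 4895 and 5506 against 8044, 6615 and 7015 at CT15. Rps27l had 3974, 4687 and 4298 in WT Control CT03 and 4105, 3722 and 4010 in WT LeuD CT03, and 5140, 5004 and 4526 against 5282, 5158 and 4133 at CT15. The LeuD libraries of Rps27 thus lay above Control in WT, while those of Rps27l overlapped Control at both times. In KO mice Rps27 had 4629, 4538 and 6524 on Control and 8100, 7163 and 8917 on LeuD at CT03, without overlap, and 7363, 5693 and 5275 against 7704, 5581 and 6332 at CT15, with overlap. At CT03 Rps27l had 5062, 3953 and 3796 on Control and 4034, 3714 and 4788 on LeuD, with overlap. Per length, Rps27l stood at a mean of 57.3% to 71.7% of Rps27 in the 4 Control groups and 35.8% to 46.7% in the 4 LeuD groups, although single libraries overlapped (38.7% to 87.6% and 34.4% to 53.9%). The windows above hold a run of 9 pyrimidines for Rps27 as well as for Rps27l, within 22 bases before the annotated start.

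Rpl36a and Rpl36al form a second pair, also nearly identical in protein. Rpl36a had 3011 to 4139 normalized counts on Control (median 3322) and 3963 to 6548 on LeuD (median 5077). Rpl36al had 5352 to 9441 on Control (median 7926) and 5842 to 10791 on LeuD (median 7613), so the ranges of the diets overlapped over most of their width. In WT at CT03 Rpl36al was lower on LeuD in all 3 libraries, at 7423, 6651 and 5842 against 7846, 8169 and 8002 (-0.28 ± 0.11, adjusted p = 0.218, limma). In KO at CT03 it was at 10546, 7614 and 8039 on LeuD and 5352, 7272 and 5978 on Control, so all 3 were higher. At CT15 in KO its libraries overlapped, with 10791, 7610 and 10148 on LeuD and 6419, 7945 and 9273 on Control. The CT03 difference between these diet effects was 0.77 ± 0.21 (adjusted p = 0.281, limma), which did not pass. Over both times it was 0.59 ± 0.16 (adjusted p = 0.0626, limma). These differences were 0.60 at CT03 and 0.45 over both times without the acinar libraries. In the comparison over both times DESeq2 called 2 members higher (3.54% of genes), limma and edgeR called 0, and 15 of 85 had an unadjusted p under 0.05, a share below the 20.2% of all genes. The median of the members was 0.14, and 0.18 without the acinar libraries, where 11 had an unadjusted p under 0.05. Limma called 0.974% of genes higher and 0.518% lower there.

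Rpl7l1, a relative of Rpl7, had 2527 to 3828 normalized counts on Control (median 3514) and 2312 to 3714 on LeuD (median 3241). Rpl22 and Rpl22l1 were both called higher on LeuD, which was not so for the pairs above. Per length Rpl22l1 stood at 28.8% to 33.9% of Rpl22 in the Control groups and 29.4% to 36.2% in the LeuD groups. With pairs this similar, values depend on how reads that fit both genes were counted.

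**Figure D3:**
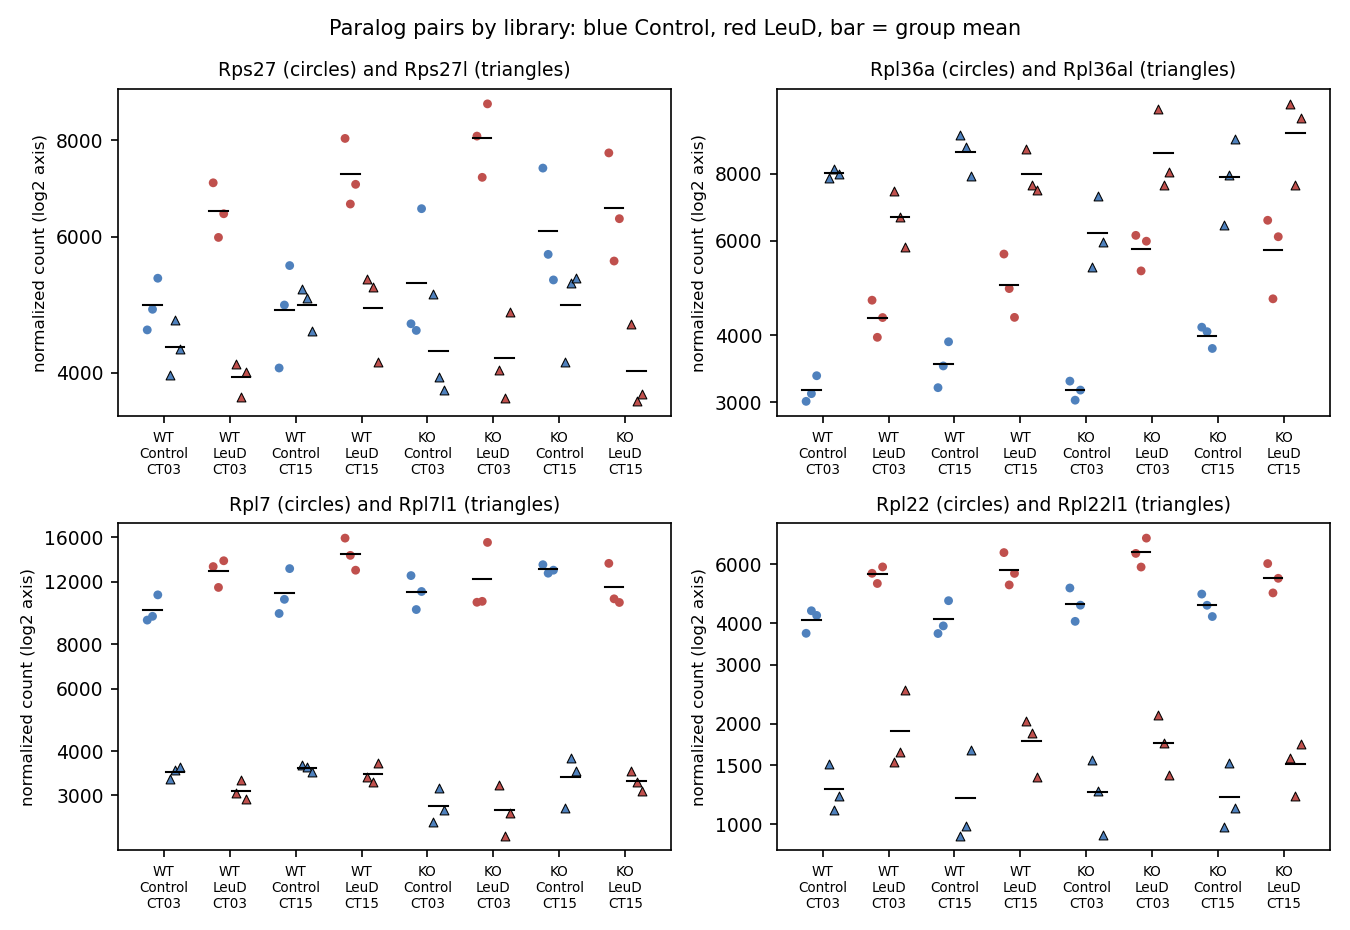
Normalized counts (y axis, log2 scale) of 4 paralog pairs in each library (circles for the standard gene, triangles for its relative), by group (x axis), with Control in blue, LeuD in red and group means as bars. Rps27, Rpl36a and Rpl22 shift upward on LeuD while Rps27l and Rpl7l1 do not, and Rpl36al is lower on LeuD in WT CT03 and higher in KO CT03.

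Members with a run of at least 8 pyrimidines near the start had a median diet change of 0.48 (51 of the 52 members counted above, -0.11 to 0.72). Those with a shorter run had a median of 0.46 (10 members, -0.08 to 0.57). Rpl23, whose longest run in the window was 6 bases, changed by 0.56, beside 0.57 for Rpl4 with a run of 15. Across the 82 members with a mean of at least 100 normalized counts, the diet change had a Pearson r of -0.04 with the log2 length of the transcript and of 0.27 with the log2 level. These points share the same libraries. Other genes with transcripts under 1000 bases and a mean of at least 1000 had a median change of -0.04 (256 genes). By condition that median was -0.08 in WT at CT03, -0.08 in WT at CT15, -0.05 in KO at CT03 and 0.08 in KO at CT15. Most members had far higher counts than this minimum, and the part of length and level in the result was not tested.

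Taken one condition at a time, the members' median diet change was positive in each. It was 0.70 in KO at CT03 and lay close together in the others, at 0.39 in WT at CT03, 0.41 in WT at CT15 and 0.35 in KO at CT15. In WT at CT03, 4 of 85 members were called higher and 0 lower, where the shares of all 14729 genes were 1.31% higher and 0.93% lower. The median change was 0.39 (1.31-fold), 81 members were positive, and in 61 the 3 LeuD libraries lay above the 3 Control libraries, against 12.1% of genes, and in 2 (Rpl36al and Rpl7l1) they lay below, against 11.9%. Rpl13a had 6391, 6446 and 7265 normalized counts on Control and 9697, 9720 and 10144 on LeuD, well apart (0.56 ± 0.09, adjusted p = 0.0254, limma). Rpl23 had 9060, 9562 and 10209 against 14904, 12562 and 15892 (0.58 ± 0.11, adjusted p = 0.0426, limma). Rpl5 had 10382, 11283 and 11957 against 16631, 14791 and 18152 (0.56 ± 0.11, adjusted p = 0.0459, limma). Rpl3 had 13822, 14992 and 17062 against 24491, 21193 and 22431 (0.57 ± 0.12, adjusted p = 0.0486, limma). In these 4 genes the diets did not overlap. The largest positive change was that of Rps20, at 0.62 ± 0.14 (adjusted p = 0.0588, limma), and the largest negative that of Rpl36al.

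That count of 4 sits at the edge of the threshold. It was 45 in the authors' deposited table (3.7% of genes called higher) and with DESeq2 (3.71%), 10 when genes with a mean under 100 were left out, 2 with edgeR (1.23%), 0 in 1 fit of all 24 libraries, and 0 or 1 after leaving out any 1 of the 6 libraries. The median stayed between 0.34 and 0.45 over those 6 omissions. No share of all genes is given for the count of 10 or for the counts with a library left out. At an unadjusted p under 0.05 there were 70 members, where 17.8% of all genes had one.

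In WT at CT15, limma and edgeR called 0 of 86 members and DESeq2 called 20, as did the authors' deposited table (1.56% of genes called higher by each), where limma called 0.0663% of 15073 genes higher and 0.119% lower. The median change was 0.41, 63 members had an unadjusted p under 0.05 (13% of genes), and 60 had their LeuD libraries above Control (9.33% of genes) and 0 below (9.53%). Rpl13a had the largest positive change, 0.67 ± 0.17 (adjusted p = 0.18, limma), at 6277, 6940 and 7375 on Control and 14259, 9406 and 9660 on LeuD. The highest LeuD value came from replicate 1, which also held acinar transcripts. Without acinar libraries the median of the members was 0.32, with 37 at an unadjusted p under 0.05. Rps4l was at -0.57 ± 0.25 and Rpl3l, with few reads, at -1.97 ± 1.08.

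In KO at CT03 the median change was the largest of the 4 conditions, at 0.70 (1.62-fold), 83 of 85 members were positive, and 77 had their 3 LeuD libraries above the 3 Control libraries, against 9.39% of genes, and 0 had them below, against 9.79%. Limma called 0 members and 0% of 14888 genes in this table, and edgeR called 0 members, while 77 members had an unadjusted p under 0.05 (14.6% of genes). DESeq2 and the authors' deposited table called 68 (2% of genes called higher by each), and 1 limma fit of all 24 libraries called 73 (2.12%). Rps26 had 5020, 4813 and 5633 normalized counts on Control and 11735, 9927 and 9369 on LeuD, a 2-fold change (SE 0.14 on the log2 scale, adjusted p = 0.189, limma). Rpl12 had 8087, 7549 and 6843 on Control and 17543, 15413 and 12640 on LeuD, which is a 2.01-fold change (log2 1.01 ± 0.16, adjusted p = 0.189, limma). Rps12 had 7445, 6403 and 6424 against 14687, 13070 and 11448. In all 3 genes the lowest LeuD library stood far above the highest Control library, and replicate 3 was the lowest LeuD library in each. Without the acinar libraries the members' median was 0.69 and 71 had an unadjusted p under 0.05. Without KO LeuD CT03 replicate 3, limma called 50 members (4.21% of genes). Rpl6l, with 9.45 to 11.1 counts on Control and 21.1 to 27.0 on LeuD, had the largest change, 1.12 ± 0.33.

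In KO at CT15 the median change was 0.35, 80 of 85 members were positive and 48 had their LeuD libraries above Control, against 11.9% of genes, and 0 had them below, against 11.1%. Limma and edgeR called 0, with 31 at an unadjusted p under 0.05 (16% of genes). DESeq2 and the authors' deposited table called 8 (3.04% of genes called higher by each), and the fit of all 24 libraries called 23 (4.99%). Limma called 0.0135% of genes higher and 0.00674% lower. Rpl12 again had the largest positive change, at 7938, 8910 and 8540 on Control and 16774, 11600 and 16169 on LeuD, without overlap (0.79 ± 0.18, adjusted p = 0.126, limma). Rps3a3 (-0.72 ± 0.58), Rps27l (-0.29 ± 0.17) and Rpl7 (-0.18 ± 0.16) had the lowest values, and none of these passed. Without the acinar libraries the median was 0.35, with 13 at an unadjusted p under 0.05. The median ran from 0.24 without KO LeuD CT15 replicate 1 to 0.48 without replicate 2.

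**Figure D4:**
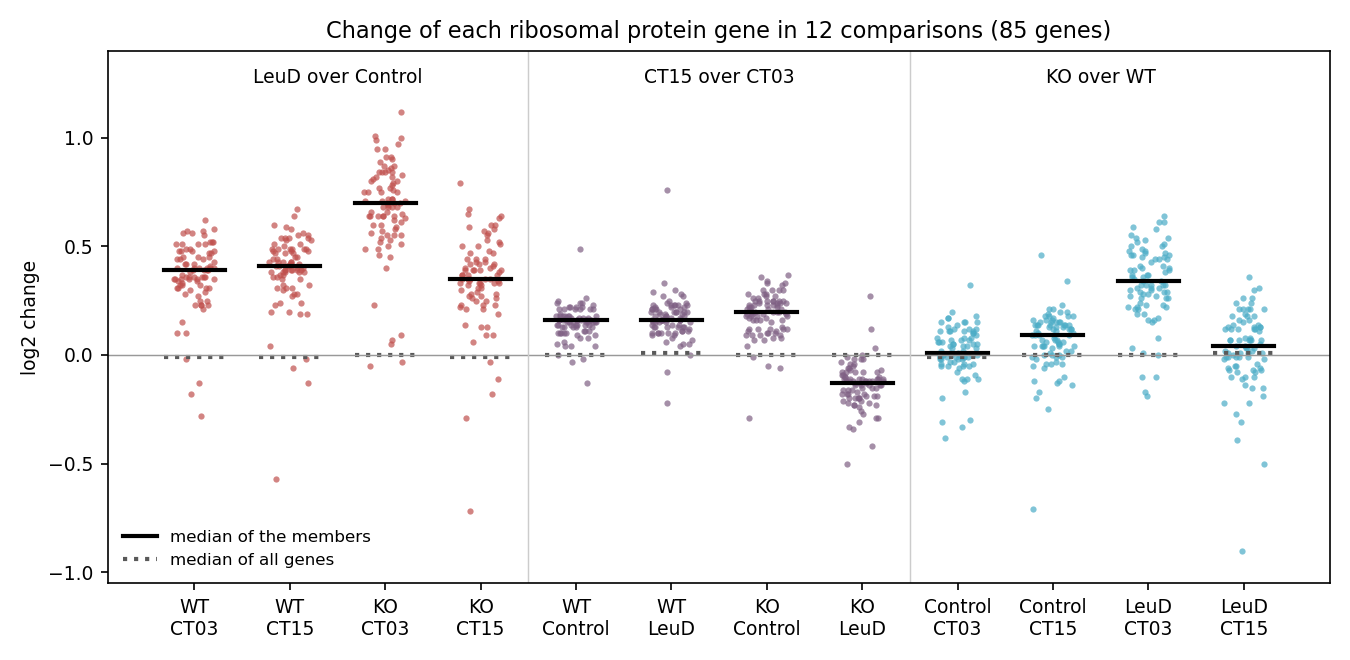
Log2 change (y axis) of each of 85 members (points, Rpl3l left out) in the 4 diet, 4 time and 4 genotype comparisons (x axis), with the median of the members given with Rpl3l where it was listed (black) and that of all genes (dotted). Diet medians lie between 0.35 and 0.70, time medians between -0.13 and 0.20 and genotype medians between 0.01 and 0.34.

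The ranking of the members by diet change was compared between conditions. Over 82 members, the diet changes at CT03 and CT15 had a Pearson r of 0.82 in WT and 0.80 in KO. Between WT and KO the r was 0.45 (both at CT03), 0.29 (both at CT15), 0.37 (WT CT03 with KO CT15) and 0.52 (WT CT15 with KO CT03). These 4 comparisons share no libraries, the members of each share its libraries, and no test was made of the difference between these values.

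Rpl7 and Rpl10 were the abundant members in which the genotypes differed most in the negative direction. Rpl10 had 16439, 17525 and 20097 normalized counts in WT Control CT03 and 25274, 21010 and 24999 in WT LeuD CT03, without overlap. In KO it had 19002, 17599 and 17170 on Control and 19285, 18519 and 26114 on LeuD at CT03, with overlap, and 20638, 20141 and 22179 against 23791, 18018 and 17176 at CT15. At CT15 the diet change of Rpl10 was 0.42 ± 0.14 in WT and -0.11 ± 0.18 in KO, a difference of -0.53 ± 0.22 (adjusted p = 0.379, limma). For Rpl7 the difference at CT15 was -0.55 ± 0.20 (adjusted p = 0.327, limma) and over both times -0.41 ± 0.15 (adjusted p = 0.149, limma). In the other direction Rpl27 differed by 0.77 at CT03 and by 0.59 ± 0.18 over both times (adjusted p = 0.0818, limma). None of these passed. The CT15 differences were -0.37 for Rpl10 and -0.39 for Rpl7 without the acinar libraries, and over both times that of Rpl7 was -0.27 and that of Rpl27 was 0.67.

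For the members as a whole, the diet change at CT03 was larger in KO than in WT for 78 of 85, with a median difference of 0.32, and 27 had an unadjusted p under 0.05 (13.2% of genes), but limma, edgeR and DESeq2 called 0 (limma called 0% of genes). Without the acinar libraries the median was 0.29, with 22 at an unadjusted p under 0.05. At CT15 the median difference was -0.03 and 35 of 85 were positive, with 0 called by limma, edgeR or DESeq2 and 3 at an unadjusted p under 0.05 (12.1% of genes), where limma called 0.0137% of genes higher and 0.00685% lower. Leaving out 1 library gave medians from -0.15 to 0.06, and without the acinar libraries the median was 0.03 with 0 at an unadjusted p under 0.05. Direct comparison of KO with WT on LeuD, on 1 scale over the 24 libraries, gave a median of 0.34 at CT03, where 80 of 85 members were positive. In 62 of 85 the 3 KO libraries lay above the 3 WT libraries, against 9.62% of genes, and 0 had them below, against 9.71%. Limma and edgeR called 0 (limma called 0.0345% of genes higher and 0.0138% lower), DESeq2 called 14 (1.93% of genes called higher), and 45 had an unadjusted p under 0.05 (13.7% of genes). The fit of all 24 libraries called 4 (0.435%). Without KO LeuD CT03 replicate 3, limma called 14 (6.44% of genes), and without the acinar libraries the median was 0.30 with 24 at an unadjusted p under 0.05. Rps19 differed most, by 0.64 ± 0.16 (adjusted p = 0.232, limma). At CT15 on LeuD the median difference was 0.04 (-0.13 with libraries scaled to total reads, beside -0.16 for all genes). It was -0.06 without KO LeuD CT15 replicate 1, 0.15 without replicate 2 and 0.11 without the acinar libraries. Here 0 members were called by limma, edgeR or DESeq2, with 2 at an unadjusted p under 0.05 (18.6% of genes), where limma called 1.23% of genes higher and 0.656% lower. In 2 members, Rps18 and Rpl10, the KO libraries lay below the WT libraries, against 11.6% of genes, and in 0 above, against 12.9%.

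On the Control diet the median difference of KO from WT was 0.01 at CT03 and 0.09 at CT15, and its sign turned to -0.09 and -0.01 with libraries scaled to total reads, where the medians of all genes were -0.11 and -0.10. Limma, edgeR and DESeq2 called 0 members at each time, and 2 members had an unadjusted p under 0.05 at each time (8.18% of genes at CT03 and 5.49% at CT15). The medians were 0.00 and 0.06 without the acinar libraries. Limma called 0.0136% of genes higher and 0% lower at CT03, and 0.0399% higher and 0.0399% lower at CT15. At CT03 Rpl36al (-0.38 ± 0.13) and Rpl7l1 (-0.33 ± 0.11) were lower in all 3 KO libraries than in the WT libraries (adjusted p = 0.57 for both, limma), and Rpl31 was the third such gene, which is 3 of 85 where 7.6% of all genes were lower in this way, and 1 member was higher in this way, against 7.45%. At CT15 these counts were 2 lower, against 6.73%, and 1 higher, against 6.52%. The largest negative change at CT15 was that of Rpl3l, with few reads, at -2.67 ± 1.03. Rps4l came next at -0.71 ± 0.26 (adjusted p = 0.791 for both, limma). Neither Control comparison had a member past the threshold.

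CT15 over CT03 gave a median of 0.16 in WT Control (82 of 86 positive), 0.16 in WT LeuD (83 of 85), 0.20 in KO Control (81 of 85) and -0.13 in KO LeuD (82 of 85 negative). Leaving out 1 library moved these medians to between 0.06 (without WT Control CT15 replicate 3) and 0.24 (without replicate 1) in WT Control, 0.08 (without WT LeuD CT15 replicate 1) and 0.24 (without replicate 3) in WT LeuD, 0.16 and 0.22 in KO Control, and -0.24 (without KO LeuD CT15 replicate 1) and -0.03 (without replicate 2) in KO LeuD. With libraries scaled to total reads the medians were 0.09, 0.10, 0.16 and -0.34, beside -0.06, -0.06, -0.04 and -0.21 for all genes. Limma, edgeR and DESeq2 called 0 members in each of the 4, where limma called 0.869%, 4.32%, 0.0271% and 0.644% of genes higher and 0.548%, 5.29%, 0.0136% and 0.161% lower, and 2, 3, 6 and 1 members had an unadjusted p under 0.05. Those shares of the members lay below the 17.1%, 25.3%, 12.3% and 16.2% of all genes. Without WT LeuD CT15 replicate 3, limma called 1 member in WT LeuD, for which no share of all genes is given. The fit of all 24 libraries called 1 lower in KO LeuD, Rps18 (3.26% of genes called lower). The CT15 libraries lay above all CT03 libraries in 6 of 86 members in WT Control (11.7% of genes) and 10 of 85 in WT LeuD (15.1%), and below them in 0 (12.2% and 16.2% of genes). In KO Control 41 of 85 members had their CT15 libraries above all CT03 libraries, against 9.73% of genes, and 0 below, against 10.1%. In KO LeuD 7 of 85 had them below, against 10.8%, and 0 above, against 11.1%. The difference between the time effects of KO and WT on LeuD had a median of -0.30, with 83 of 85 negative and 8 at an unadjusted p under 0.05, near the 9.42% of all genes, and limma, edgeR and DESeq2 called 0. Limma called 0% of genes higher and 0.0207% lower there. Without the acinar libraries that median was -0.17, with 1 at an unadjusted p under 0.05, and the median time change was 0.08 in WT LeuD, -0.10 in KO LeuD and 0.21 in KO Control, with 0, 0 and 9 members at an unadjusted p under 0.05. The difference between LeuD and Control in KO had a median of -0.32, also with 0 called by these 3 tools and 9 at an unadjusted p under 0.05 (6.45% of genes). That median was -0.30, with 1 at an unadjusted p under 0.05, without the acinar libraries. In WT that difference had a median of 0.02, which leaving out 1 library moved to between -0.07 and 0.11 and leaving out the acinar library to -0.07. There 0 members were called by these tools and 0 had an unadjusted p under 0.05 (6.58% of genes), where limma called 0% of genes higher and 0.00686% lower. Between the genotypes on Control the time effects differed by a median of 0.05 (0.06 without the acinar libraries, -0.04 to 0.13 leaving out 1 library). There 0 members were called by these tools and 1 had an unadjusted p under 0.05 (5.12% of genes), where limma called 0.0275% of genes lower.

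Rps18, a protein of the head of the small subunit at the contact with the large subunit, had the largest negative time change in KO LeuD. It had 17069, 15828 and 17457 normalized counts at CT03 and 13022, 10028 and 12886 at CT15, without overlap (-0.50 ± 0.17, adjusted p = 0.204, limma). In WT LeuD it went the other way in its mean, from 14860, 12456 and 13639 to 17196, 15519 and 14253, with overlap. The difference between those time effects was -0.70 ± 0.19 (adjusted p = 0.377, limma). On LeuD at CT15, Rps18 was lower in the 3 KO than in the 3 WT libraries (-0.39 ± 0.15, adjusted p = 0.21, limma), as was Rpl10 (-0.50 ± 0.17, adjusted p = 0.159, limma). Of these, the time change in KO LeuD passed in the fit of all 24 libraries (adjusted p = 0.0409, limma). Without the acinar libraries it was -0.55 (adjusted p = 0.732, limma), and the difference of time effects was -0.67 and the genotype difference -0.38.

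Other genes of the translation machinery were examined from lists chosen for their roles, and their counts stand beside 7.15% of all genes called higher and 6.78% lower in the mean diet effect. Among ribosomal proteins whose names fall outside the rule, Rack1, a scaffold on the small subunit, rose by 0.59 ± 0.06 and Fau, a ubiquitin-like fusion with Rps30, by 0.42 ± 0.09 in the mean diet effect. Translation factors and related genes whose messages are known to carry a TOP tract had 18 of 25 called higher and 0 lower, with a median of 0.30. Gas5, a noncoding host of small nucleolar RNAs, rose by 0.95 ± 0.10 (adjusted p = 1.36e-05, limma). The nucleolar chaperone Npm1 rose by 0.60 ± 0.09, and the elongation factor subunits Eef1b2 and Eef1a1 by 0.59 ± 0.06 and 0.45 ± 0.10. Eef2, which moves the ribosome along the message, rose by 0.45 ± 0.12 and Pabpc1, the poly(A)-binding protein, by 0.37 ± 0.07.

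Factors that build ribosomes were mixed. Of 40, 13 were called higher and 2 lower, with a median of 0.19. The box C/D core proteins Nop56 and Nop58 rose by 0.58 ± 0.09 and 0.44 ± 0.10, the RNA polymerase I subunit Polr1a by 0.48 ± 0.11 and nucleolin, Ncl, by 0.44 ± 0.07. Nmd3, the export adapter of the large subunit, fell by 0.23 with an SE of 0.05 and the box H/ACA protein Nop10 by 0.28 with an SE of 0.09. Others of the list, such as Fbl (-0.00 ± 0.10), Gar1 (0.32 ± 0.17), Dkc1 (0.12 ± 0.07) and Nhp2 (0.08 ± 0.09), were not called. Ribosomal proteins of the mitochondrion had 6 called higher and 6 lower of 78, close to those shares of all genes, with a median of -0.01. Pseudogenes of ribosomal proteins had 14 of 38 called higher and 0 lower (median 0.37). They held 0.00377% to 0.0065% of reads, and reads from the parent genes can be placed on them.

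Of 18 measured growth and p53 regulators, 4 were called higher and 1 lower. Cdkn1a, a cell cycle inhibitor and p53 target, rose by 1.69 ± 0.44 and Nupr1, a stress-induced chromatin protein, by 1.62 ± 0.42. Eif4ebp1, the repressor of cap binding that mTORC1 inactivates, rose by 0.33 ± 0.10 and Larp1 by 0.27 ± 0.08. Tsc1, which restrains mTORC1, fell by 0.29 with an SE of 0.08.

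**Figure D5:**
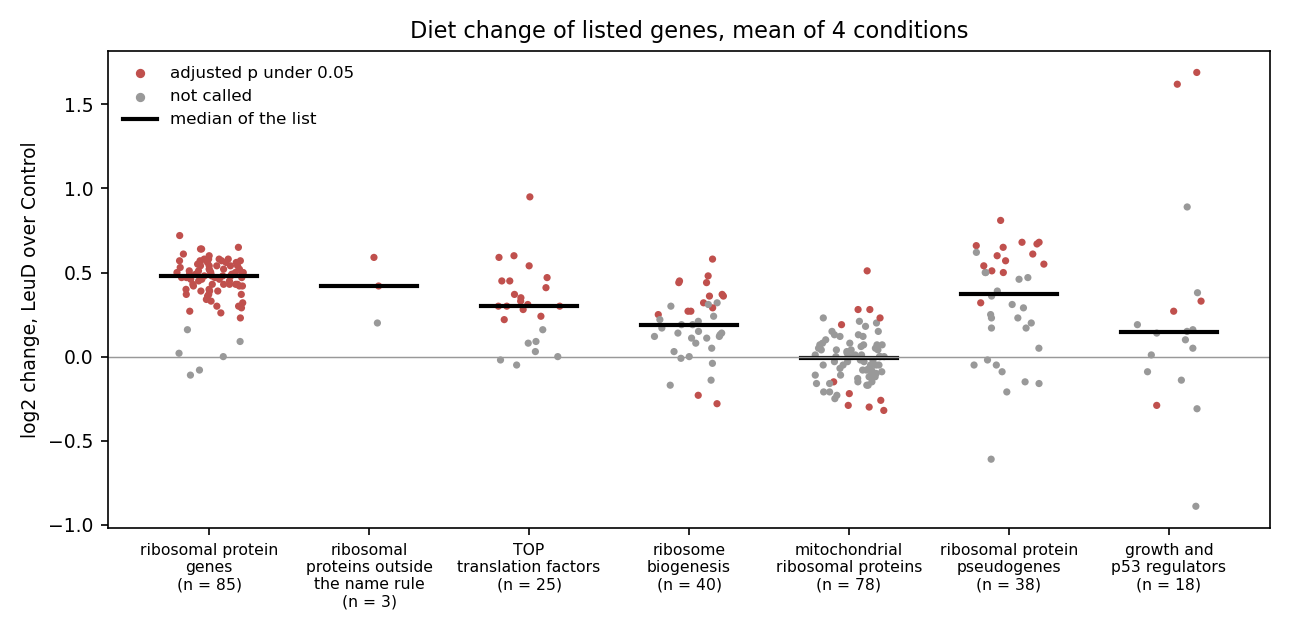
Log2 change of LeuD over Control (y axis), mean of 4 conditions, for each gene (points, red where called) of 7 lists (x axis), with the list's median as a bar. Medians are 0.48 for the ribosomal protein genes, 0.30 for TOP translation factors, 0.19 for ribosome biogenesis and -0.01 for mitochondrial ribosomal proteins.

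Over the 24 libraries the summed level of the members was followed most closely, among genes outside all lists with a mean of at least 500 reads, by Nsa2 (Pearson r = 0.94), Gm10736 (0.92), Gm10076 (0.91), Eif3i (0.90) and 2410006H16Rik (0.86). Nsa2 is a factor of large subunit assembly and Eif3i a subunit of an initiation factor. Whether reads of members were placed on Gm10736 or Gm10076 was not tested. The libraries differ in diet, so this is a description of 24 points that fall into groups. Of 82 members with enough reads, 66 had an r above 0.90 with the sum they belong to, and the lowest were Rpl7l1 (-0.20), Rps27l (-0.08), Rps4l (0.06), Rpl36al (0.40), Rpl7 (0.54) and Rpl10 (0.57).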

How the data were processed

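Liver RNA-seq of 24 mice was analysed from 10 tables of the authors, each holding 6 libraries. The submitters' processing notes list DESeq, DESeq2, featureCounts, STAR 2.5.2b, Subread 1.5.2, Trimmomatic 0.36 and the build GRCm39. Settings, strand and the treatment of reads that fit several genes are not given in those sources. Per the labels' protocols, RNA was enriched on oligo(dT) beads. Each library value deposited by the authors is a signal, a gene's count divided by a size factor set within each table. Per the file headers, the tables also hold a log2 fold change, a p-value and an adjusted p. Low values gave the worth of 1 read in each library, from which reads were recovered (100% of values whole within 0.01). Over 48 comparisons of a library shared by a pair of tables, 0 recovered reads differed. No library duplicated a mate (lowest chi-square over degrees of freedom 34.1). The labels number mice as biological replicates, and p-values measure the spread between them.

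Within each table, limma 3.58.1 (R 4.3.3) with an intensity trend was fitted to log2(normalized count + 1), 2-sided, adjusted over all genes. Fold changes on this scale understate changes of genes with few reads. Differences of effects were fitted over 12 libraries, for genes with a mean of at least 10 in one table. KO against WT on LeuD, the mean diet effect and levels across tables used recovered reads over size factors of the 24 libraries. Level per length used GENCODE M21 transcripts matched by gene identifier. Alternatives included edgeR 4.0.16 and DESeq2 1.42.0 on recovered reads. The fits were tested on simulated data. In 12 comparisons of 2 groups, 0 had same-numbered libraries that all deviated together (r above 0.1). Single values of r ran from -0.55 to 0.53. With so few mice per group this check cannot exclude a pairing, and the main fits treated the mice as unpaired.

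The members and gene lists were chosen with earlier results of these data known. Named were called members, extremes of some comparisons, a fixed set of 30 members and the most and least variable members. Up to 3 genes of each list and the 5 genes closest to the summed members were named too. In the remaining comparisons the extremes were not all given. Other genes, such as Rpl26, Rps14, Rps24, Rpl29, Rpl34 and further list genes, were named after their values were seen. The mean effects over conditions and times were also chosen after seeing the data.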

Additional observations from a re-analysis of the deposited data

How the results depend on the processing

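The count of called members in the mean diet effect was 77 to 79 when each library was left out in turn, 74 without the acinar libraries, 77 with genes of a mean of at least 100 and 79 with the replicate number as a block, so it kept its direction under these alternatives. The counts of the single comparisons depended on the tool. For diet in WT at CT03, 4 with the deposited scale became 45 with DESeq2 and with the authors' deposited adjusted p, 10 with genes of a mean of at least 100, 2 with edgeR, 0 in 1 fit of 24 libraries, 3 with the replicate block and 0 to 1 when leaving out a library. DESeq2 and the authors' adjusted p each gave 20 for diet in WT at CT15, 68 in KO at CT03 and 8 in KO at CT15, where limma gave 0. The fit of 24 libraries gave 73 in KO at CT03, 23 in KO at CT15, 4 for genotype on LeuD at CT03 and 1 for time in KO LeuD, and DESeq2 gave 14 for genotype on LeuD at CT03 and 2 for the mean diet by genotype difference. The cause of these differences was not tested. Counts here with the filter on the mean, the replicate block or a library left out have no share of all genes beside them.

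Leaving out a library gave 0 to 50 called for diet in KO at CT03, 0 to 14 for genotype on LeuD at CT03, 0 to 4 for the mean diet by genotype difference, 0 to 1 for time in WT LeuD and 0 to 1 for the diet by genotype difference at CT03, with the highest counts without KO LeuD CT03 replicate 3, except for time in WT LeuD (without WT LeuD CT15 replicate 3). The replicate block changed no other count of called members. Shares of all genes stand with the counts of 50 and 14 in the Results, and none is given for the others.

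The median of the members kept its sign in the 4 diet comparisons under every alternative run. Scaling to total reads moved the median of all genes by up to -0.21 (time in KO LeuD), and there the members' median was -0.34. It was -0.49 for the time by diet difference in KO (all genes -0.15) and -0.13 for genotype on LeuD at CT15 (all genes -0.16), so in the latter the members did not stand below other genes. For genotype on Control it was -0.09 at CT03 and -0.01 at CT15, so those small medians changed sign, and leaving out 1 library gave -0.03 to 0.09 and 0.00 to 0.17. A 1-library omission moved no median by more than the spread between mates, 0.138 on the log2 scale.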
